A study of Mus musculus with 194 samples.

Results

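Zbtb20 is a gene of mouse chromosome 16 whose locus was followed here through every group of a calling card experiment in the mouse brain. Calling cards record where a protein meets the genome as permanent transposon insertions: the piggyBac transposase, alone or fused to a transcription factor, places transposons at TTAA sites, and unfused piggyBac is known to favour active enhancers. The locus was taken as the gene body of GRCm38, 16:42875689-43634392 (758704 bp, plus strand), with 50 kb on each side, and was cut into 18 windows of 50 kb out of 52623 windows on chromosomes 1 to 19 and X. It is 1 of 21631 protein-coding loci. The gene was chosen by its insertion level in these tables, known from earlier results to differ between the groups, so its levels and fold changes, and those of its windows, are given as a description and not as tests. Its 47 tables held 55287 insertions in the locus out of 21931733 (0.252%), although the locus makes up 0.0326% of the length of those chromosomes.

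Zbtb20 encodes a BTB zinc finger protein, a transcription factor known mainly as a repressor. It is known from the hippocampus, where it marks developing pyramidal neurons of the CA1 field, and from the astrocyte lineage, where it takes part in astrocyte differentiation. Adult cortical astrocytes are known to express it strongly, whereas most cortical neurons express little of it. An insertion in its locus is not a measurement of its RNA: it records that the transposase reached that stretch of DNA in some cell at some time after the virus was given.

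All brain groups received adeno-associated virus at postnatal day 0 to 1. Self-reporting transposons (SRT), which are read from RNA that runs from the transposon into the flanking genome, served in all groups but BrokenHeart, whose transposons are read from DNA. The C57bl6J animals (n = 2) received viruses that need no Cre. In Syn1Cre (n = 6) the Cre line is named for Syn1, a gene of neurons, and in GFAPCre (n = 6) for GFAP, an intermediate filament gene of astrocytes. Syn1CreNeg and GFAPCreNeg (n = 6 each) carry the name of the same line with the word negative, and how their Cre state was set is not given in the sources used here. Syn1Cre_SP1_P28 (n = 4) and Syn1Cre_SP1_P10 (n = 3) are named for SP1, a transcription factor that binds GC boxes, and for an age. Rbp4Cre_TRAP (n = 4) is RNA from whole forebrain after translating ribosome affinity purification from the Rbp4 line, which marks neurons of cortical layer 5. The construct behind the name Frontflip (Frontflip_GFAPCre and Frontflip_GFAPCreNeg, n = 3 each) is not described in the sources used here. N2a, a neuroblastoma line of the mouse, came as 1 pooled table. Apart from Rbp4Cre_TRAP and N2a the tissue was cortex, and ages are named only for the SP1 groups. Cortex samples for SRT were cut into 10 pieces. Each numbered replicate is called an animal here, although the labels do not say that replicates came from separate animals, and the 3 BrokenHeart replicates are listed under 1 GEO sample. So p-values measure only the spread between these replicates.

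The tables held between 2341 and 2186743 insertions and between 5840 and 19960706 reads each. The shallowest were the 3 Frontflip_GFAPCreNeg animals, with 143 insertions in the locus between them, and the 4 Rbp4Cre_TRAP animals, with 118. Sample labels came in 2 layouts, with or without a field for transposon barcodes: animals 4 to 6 of Syn1Cre and Syn1CreNeg and all Frontflip animals had the second layout, and all other animals the first. Some GFAPCre and GFAPCreNeg animals were listed under the same GEO samples, as were most animals of both SP1 ages. Animals listed under the same GEO sample are said here to share a pool, which is read from that listing alone. Syn1CreNeg animals of the first layout shared pools with GFAPCre animals, and those of the second layout with Frontflip animals. Syn1Cre animals shared pools only with one another, so in every comparison with Syn1Cre pool and group cannot be told apart. Tissue labels were compared with lists of cell type markers. Summed over 12 astrocyte marker loci, Syn1Cre held 978 to 3089 CPM (insertions per 1000000 insertions of the table), Syn1CreNeg 3202 to 4159, GFAPCre 1259 to 2488, GFAPCreNeg 2313 to 4739 and Rbp4Cre_TRAP 437 to 819, with Aldoc and Gjb6 at 0 in Rbp4Cre_TRAP. Summed over 12 neuron marker loci, Syn1Cre held 4152 to 4814, Syn1CreNeg 2815 to 3922, GFAPCre 3516 to 4364 and GFAPCreNeg 2475 to 3668. By their means, the order of the astrocyte sums over these 5 groups was also that of the Zbtb20 levels given next, and the markers' part in those levels was not tested.

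The RefSeq promoter table (GRCm38.p6) places the start of its Zbtb20 transcript at 43247284, which is 371595 bp inside the gene body and so not at the body's 5′ end. The window of that table, chr16:43247034-43247333 on the plus strand, is shown because piggyBac needs a TTAA site, so that the letters set where insertions could fall. The capitals mark TTAA.

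Zbtb20 promoter: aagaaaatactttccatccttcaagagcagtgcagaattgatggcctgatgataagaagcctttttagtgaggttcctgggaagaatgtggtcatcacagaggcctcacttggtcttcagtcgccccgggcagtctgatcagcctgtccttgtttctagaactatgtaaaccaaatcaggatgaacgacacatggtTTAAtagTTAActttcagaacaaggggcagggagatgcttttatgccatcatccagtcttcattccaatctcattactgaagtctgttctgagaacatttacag

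The window holds 2 TTAA sites, 54 and 47 bases before the start. Over the 47 tables the first of them held 2 insertions in 2 tables and the second held 0. Insertions per TTAA site in the gene around this promoter were not counted. TTAA occurs in 52.4% of the 32851 promoters in the table. The GC box core GGGCGG, a motif of SP1, is on neither strand of the window, whereas 35.7% of the promoters hold it on either strand. Those letters say nothing about binding elsewhere in the locus.

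The level of the locus, in CPM, was highest in Frontflip_GFAPCreNeg and Syn1CreNeg and lowest in ribosome-purified RNA of the Rbp4 line. The 3 Frontflip_GFAPCreNeg animals had 7708, 9398 and 8297 CPM, a mean of 8467 ± 858 (SD, n = 3). They rest on 22 to 74 insertions each, and the Wilson 95% interval of the shallowest ran from 6214 to 14189, for counting error only. Syn1CreNeg followed with 5265 ± 899 (SD, n = 6; lowest 4216, median 5215, highest 6662). Its lowest animal lay below every Frontflip_GFAPCreNeg animal, and the ranges of those groups did not overlap.

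The Frontflip_GFAPCre animals had 4159, 4196 and 5727 CPM (4694 ± 895, SD, n = 3). GFAPCreNeg had 4107 ± 1256 (SD, n = 6), with a lowest value of 3299, a median of 3648 and a highest of 6599. That highest animal, number 6, stood apart from the other 5, which reached at most 4094, and it had the smallest table of its group, with 208057 insertions. The 4 Syn1Cre_SP1_P28 animals had 4161, 3818, 4283 and 1823 CPM (3521 ± 1149, SD, n = 4). Animal 4 was the low one, and its table of 577609 insertions was the largest of the group. Each of these groups overlapped its neighbours in the order.

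GFAPCre had 2535 ± 783 CPM (SD, n = 6; lowest 1573, median 2356, highest 3719). The Syn1Cre_SP1_P10 animals had 1923, 2350 and 1678 (1984 ± 340, SD, n = 3). Syn1Cre had 1942 ± 1080 (SD, n = 6), from 1252 over a median of 1618 to 4096. Its highest value again belonged to the animal with the smallest table, number 5 with 443158 insertions, while the other 5 Syn1Cre animals stayed at or below 1804. These 3 groups overlapped one another.

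The pooled N2a table had 1884 CPM (Wilson 95% interval 1792 to 1981). The C57bl6J animals had 1584 and 1611 (1598 ± 19, SD, n = 2), just below N2a. BrokenHeart had 1836, 1212 and 1388 (1479 ± 322, SD, n = 3) and overlapped C57bl6J. The 4 Rbp4Cre_TRAP animals were lowest, with 561, 576, 699 and 1188 CPM (756 ± 295, SD, n = 4), and the highest of them lay below the lowest BrokenHeart animal. Between neighbours in the order, ranges stayed apart at 3 places only: Frontflip_GFAPCreNeg above Syn1CreNeg, N2a above C57bl6J, and BrokenHeart above Rbp4Cre_TRAP. Tissue was read in bulk, so fewer cells of a type and fewer insertions per cell cannot be told apart.

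**Figure D1:**
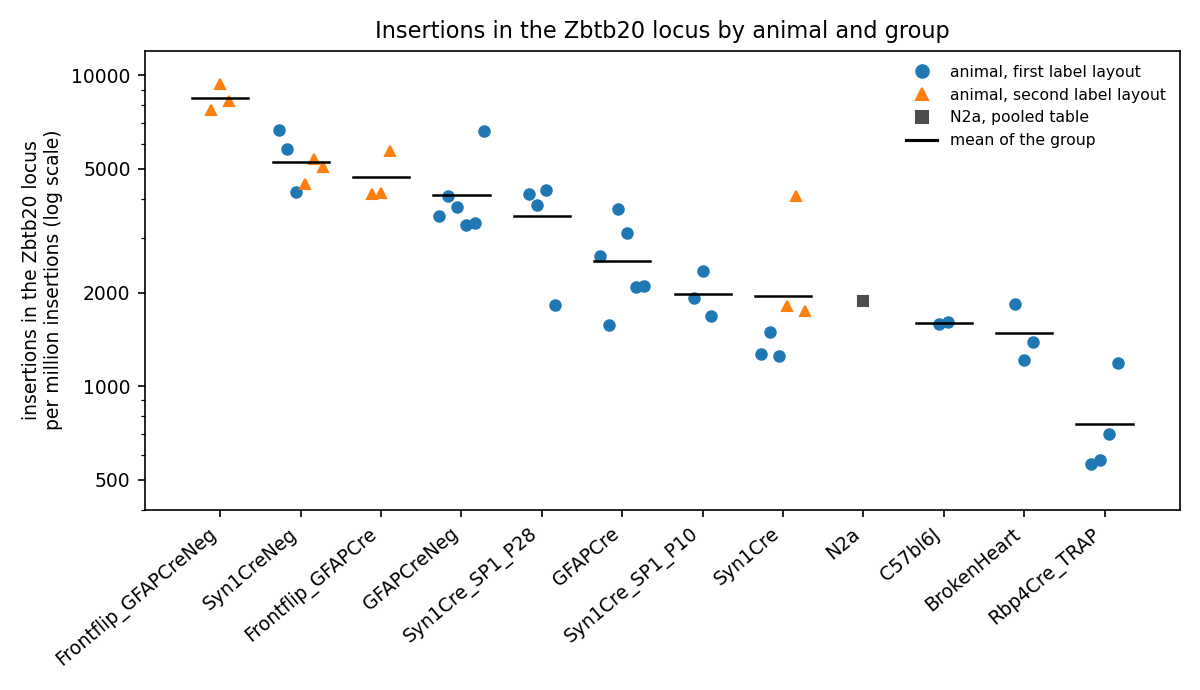
Level of the Zbtb20 locus in CPM, insertions per 1000000 insertions of the table (log axis), for each animal, with groups in falling order of their mean. Circles and triangles are animals of the first and second label layout, the square is the pooled N2a table and lines are group means. The means fall from 8467 in Frontflip_GFAPCreNeg to 756 in Rbp4Cre_TRAP, and 1 Syn1Cre animal (4096) and 1 GFAPCreNeg animal (6599) lie above the rest of their groups.

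The insertions gathered in a few stretches of the gene rather than along its whole length. Averaged over the 11 groups of animals, the highest window, 16:43500001-43550000, held 1173 CPM. It begins 624312 bp downstream of the body's 5′ end and ends 84392 bp before its 3′ end. Next came 16:42900001-42950000 with 614, near the body's 5′ end and partly over the lncRNA gene Gm19522, and 16:43450001-43500000 with 359. The lowest were the outermost windows, 16:43650001-43700000 with 5.23 and 16:42800001-42850000 with 6.01, and a window inside the body, 16:42950001-43000000 with 23.2, which adjoins the second highest. No genome sequence was used here, so exons and introns within these windows are not named.

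In the highest window Syn1CreNeg had 1898 ± 455 CPM and Syn1Cre 672 ± 355 (SD, n = 6 each). There the 6 GFAPCreNeg animals averaged 1283 ± 384 (SD) and the 6 GFAPCre animals 872 ± 265 (SD). C57bl6J had 445 ± 22.4 (n = 2), BrokenHeart 536 ± 85.0 (n = 3), Syn1Cre_SP1_P28 1148 ± 378 (n = 4), Syn1Cre_SP1_P10 725 ± 139 (n = 3) and Rbp4Cre_TRAP 209 ± 165 (n = 4), each with its SD. The window's order over groups thus began and ended as that of the whole locus, with Frontflip_GFAPCreNeg at 3327 ± 831 (SD, n = 3) and Rbp4Cre_TRAP lowest.

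The second window, near the 5′ end, differed more between the readouts. It held 1252 ± 275 CPM in Syn1CreNeg against 390 ± 294 in Syn1Cre (SD, n = 6 each), and 918 ± 349 in GFAPCreNeg against 510 ± 173 in GFAPCre (SD over 6 animals each). In C57bl6J it held 263 and 320. In BrokenHeart it held 138 ± 47.6 (SD, n = 3), and every BrokenHeart animal lay below both C57bl6J animals there. In the highest window the 3 BrokenHeart animals (448 to 618) overlapped the C57bl6J animals (429 and 461).

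Together the highest and second windows held 59.6% ± 5.57 of the locus's insertions in Syn1CreNeg, 53.8% ± 3.10 in Syn1Cre, 53.3% ± 1.10 in GFAPCreNeg and 54.2% ± 1.38 in GFAPCre (SD over 6 animals each). The lowest mean among groups of animals was 40.1% ± 5.64 (SD, n = 4) in Rbp4Cre_TRAP. In N2a the same windows held 22.9%. The neuroblastoma line therefore had a level between those of Syn1Cre and C57bl6J but a different spread along the gene, as 1 table without replicates.

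At a resolution of 5 kb, the bin 16:43505001-43510000 averaged 482 CPM over groups, ranked among the top 3 bins in 11 of 11 groups and was hit in 46 of 46 animals. N2a had 23.6 there. The bin 16:42910001-42915000 averaged 283 and was in the top 3 in 7 groups, and 16:43510001-43515000 averaged 262 and was in the top 3 in 10. The strongest bins of N2a lay elsewhere. Its first, 16:42870001-42875000, lies just before the body's 5′ end and inside the lncRNA gene 4932412D23Rik. It held 213 CPM, against a mean of 53.3 over groups. The next in N2a were 16:43335001-43340000 with 128 and 16:43545001-43550000 with 108.

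Single TTAA positions were hit again and again across animals. The 46 animals had 53767 insertions at 4122 distinct positions, of which 1135 (27.5%) were seen once. Of the positions, 146 were hit in at least 30 animals, and 69 of those lie in the highest window. The most shared position, 16:43507274-43507277, was hit in 43 animals, with 341 insertions in all, of which 11.4% lay on the strand of the gene. The position 16:43466027-43466030 was hit in 42 animals, with 411 insertions and 70.3% on the gene's strand. The third, 16:43510808-43510811, was hit in 41 animals, with 478 insertions and 42.7% on the gene's strand. N2a had 2, 0 and 1 insertions at these positions. The first position thus lay mostly against the gene's strand and the second mostly on it. The 3 animals without an insertion at the first belonged to the shallow groups Frontflip_GFAPCreNeg and Rbp4Cre_TRAP.

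**Figure D2:**
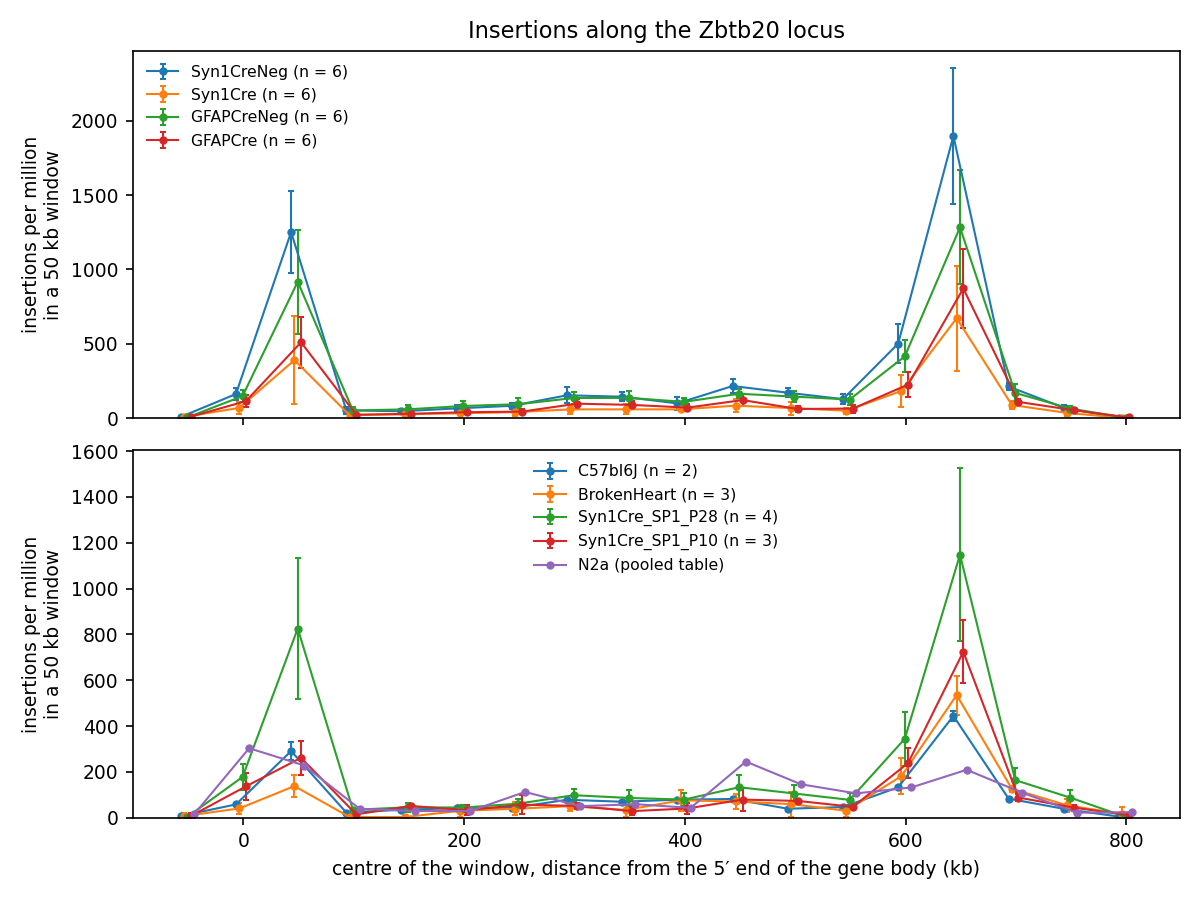
Mean CPM in each 50 kb window (vertical axis) against the distance of its centre from the 5′ end of the gene body in kb. Error bars are SD over animals, and N2a is 1 pooled table. The upper panel has the Syn1 and GFAP groups and the lower panel C57bl6J, BrokenHeart, the SP1 groups and N2a. Every group of animals shown peaks in the highest window, Syn1CreNeg at 1898, whereas N2a peaks at the body's 5′ end with 304.

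The study compared Cre lines named for a neuron gene and an astrocyte gene, and the mean level of Zbtb20 was a little higher in the latter. The log2 fold change of GFAPCre over Syn1Cre, from the edgeR model across all loci, was 0.42 ± 0.24 (SE), and animals overlapped widely (1573 to 3719 against 1252 to 4096). It depended on 1 Syn1Cre animal: without animal 5 the log2 fold change was 0.81. With the 3 Syn1Cre animals of the first label layout only it was 1.05. Of the 16 windows tested, 15 had a fold change above 0 and 0 passed an adjusted p of 0.05 with edgeR or with DESeq2, beside 2.84% of all windows tested that passed in either direction. Such counts of windows, here and in the comparisons that follow, come from the fit of all windows and describe a locus chosen by these same levels, so nothing is read from them against the share of all windows. At an unadjusted p under 0.05 there were 5 higher. Without Syn1Cre animal 5 9 windows passed, and without GFAPCre animal 2 there were 3.

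Syn1Cre lay far below its negative group. Every Syn1Cre animal (1252 to 4096) was below every Syn1CreNeg animal (4216 to 6662), and the log2 fold change was -1.44 ± 0.22 (SE). The 3 animals each of the first layout gave -2.08 and those of the second -0.95, so the sign was the same in both layouts and the size was not. Without Syn1Cre animal 5 it was -1.84. All 16 windows tested passed as lower, beside 18% of all windows tested. Their log2 fold changes ran from -1.74, in the second highest window, to -0.94.

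GFAPCre lay below its negative group by less. The log2 fold change was -0.71 ± 0.16 (SE), with GFAPCre animals from 1573 to 3719 and GFAPCreNeg animals from 3299 to 6599, so the ranges overlapped. All 16 windows tested had a fold change below 0, and 10 passed as lower, beside 4.94% of all windows. In the highest window the log2 fold change was -0.60 ± 0.22 and did not pass, while in the second it was -0.89 ± 0.23 and passed as lower. The largest difference was in 16:43350001-43400000, at -1.26 ± 0.18 (SE), downstream of the body's midpoint.

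**Figure D3:**
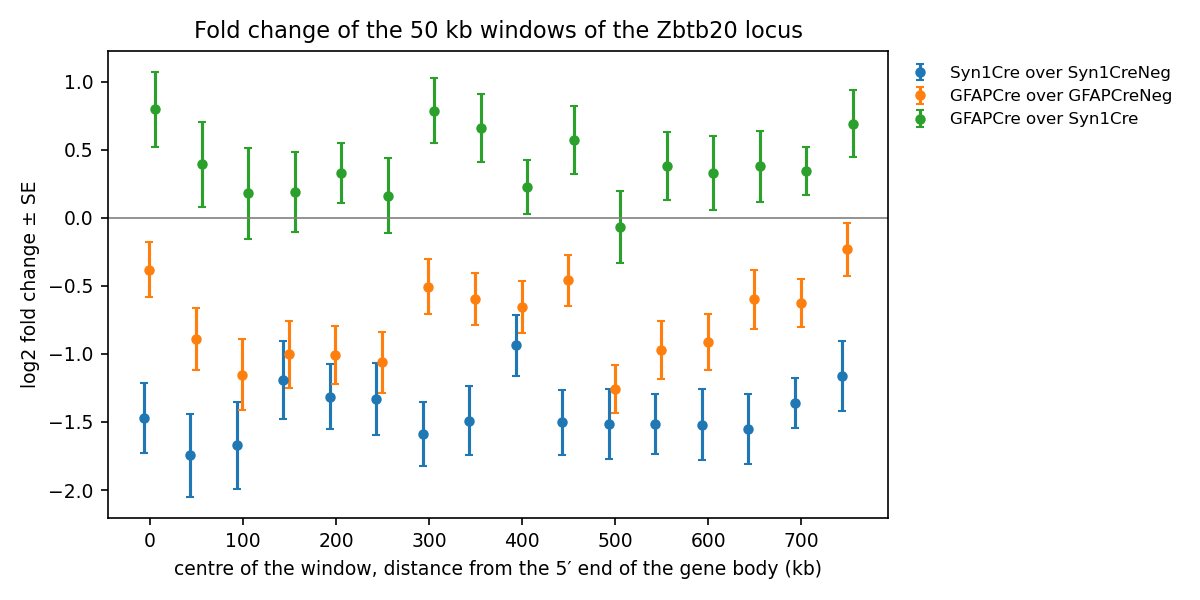
Log2 fold change ± SE of each tested 50 kb window (vertical axis) against the distance of its centre from the 5′ end of the gene body in kb, for 3 comparisons. Syn1Cre over Syn1CreNeg lies below 0 in all 16 windows, from -1.74 to -0.94. GFAPCre over GFAPCreNeg lies below 0 in all 16 and GFAPCre over Syn1Cre above 0 in 15 of 16.

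The SP1 groups can be set against Syn1Cre and against each other. Syn1Cre_SP1_P28 had a log2 fold change over Syn1Cre of 0.34 ± 0.28 (SE), and of 0.56 when scaled by total insertions, with overlapping animals. In every comparison the windows were fitted apart from the loci and with their own scaling. Fold changes of windows and of the locus are therefore not on the same scale, and neither are their signs. The 16 windows tested were all above 0, with a median of 0.74, and 6 of them passed as higher, beside 20.2% of all windows. The 3 windows with the highest levels were among those 6, and the largest change was 1.42 ± 0.33 (SE) in 16:42850001-42900000, the window that holds the body's 5′ end. Without Syn1Cre animal 5 the log2 fold change of the locus was 0.74 and 15 windows passed, without Syn1Cre_SP1_P28 animal 4 there were 11, and without Syn1Cre animal 1 or Syn1Cre_SP1_P28 animal 1 or 3 there were 3. Syn1Cre_SP1_P10 gave -0.55 ± 0.29 (SE) over Syn1Cre, where the median of all loci was itself -0.28. Scaling by total insertions gave -0.24 and the body without flanks -0.22. Of its 16 windows tested 8 were above 0 and 8 below, with a median of -0.02. With edgeR and with DESeq2 0 windows passed there, beside 24.2% of all windows in either direction, and 1 was higher at an unadjusted p under 0.05. Without Syn1Cre animal 5 the value was -0.15 and 3 windows passed. Counting distinct positions alone turned its sign (0.087). Both comparisons share the Syn1Cre animals. All SP1 animals have the first label layout, as do only 3 of the 6 Syn1Cre animals. In CPM those 3 (1266, 1491 and 1252) lay below every Syn1Cre_SP1_P10 animal (1678 to 2350) and every Syn1Cre_SP1_P28 animal (1823 to 4283). The mean over all animals was 1984 in Syn1Cre_SP1_P10 and 1942 in Syn1Cre, so the means did not share the sign of the -0.55. No fit used the first layout alone here.

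Between the ages, Syn1Cre_SP1_P28 over Syn1Cre_SP1_P10 gave 0.87 ± 0.24 (SE). Of its 4 animals, 3 were above all P10 animals and animal 4 (1823) was among them. Without that animal the value was 1.09 and 5 windows passed, and without any other animal 1 did. Of 7 windows tested, 2 passed as higher, beside 10.4% of all windows: the second highest window at 1.72 ± 0.29 and the highest at 0.73 ± 0.24 (SE).

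Reading from DNA or from RNA gave overlapping levels of the whole locus. BrokenHeart over C57bl6J was -0.23 ± 0.14 (SE), and 0.011 when scaled by total insertions, with overlapping animals. Without BrokenHeart animals 1, 2 and 3 in turn it was -0.70, -0.49 and -0.45. Of 5 windows tested, 2 passed as higher, beside 26.7% of all windows, and 1 as lower, beside 25.1%. Without BrokenHeart animal 2 or 3 or C57bl6J animal 1 only 1 passed, and without C57bl6J animal 2 there were 0. The lower one was the second highest window (-0.81 ± 0.29), and the higher ones were the highest window (0.47 ± 0.18) and the one after it (0.89 ± 0.35, SE). The groups also differ in the construct and in depth, which cannot be told apart from the readout.

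Rbp4Cre_TRAP over Syn1Cre was -1.75 ± 0.28 (SE), where the median of all loci was -0.32, and every Rbp4Cre_TRAP animal (561 to 1188) lay below every Syn1Cre animal. The 3 windows that passed as lower, beside 0.966% of all windows, were the 3 with the highest levels, at -2.31 ± 0.37, -2.28 ± 0.49 and -2.0 ± 0.51 (SE). These 4 tables had 28 to 32 insertions each in the locus. Rbp4Cre_TRAP and Syn1Cre also differ in Cre line, tissue, ribosome purification and depth, which cannot be told apart. Frontflip_GFAPCre over GFAPCre was 0.93 ± 0.17 (SE), with every Frontflip_GFAPCre animal above every GFAPCre animal, and 5 of 16 windows passed as higher, beside 1.39% of all windows. Without 1 animal at a time between 0 and 10 windows passed, with 0 without Frontflip_GFAPCre animal 3, 1 without its animal 2, 3 without its animal 1 or GFAPCre animal 1 or 6, 2 without GFAPCre animal 5 and 10 without GFAPCre animal 3. All Frontflip animals have the second label layout and all GFAPCre animals the first, so layout and group cannot be told apart.

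The level of the locus chose the gene, and that choice did not use the strand of the insertions inside it. Their place was not separate from that choice, since the locus was followed in 50 kb windows across the groups. The p-values of shares by place, before the midpoint or near a start, are therefore given as a description. The share by strand was not free of place either. Pooled over animals, the highest and second windows had 40.1% on the gene's strand in GFAPCre, against 47.1% in the rest. In GFAPCreNeg the values were 36.0% and 43.1%. The part of place and level in the differences by strand was not tested. Shares by strand and by place were put through exact two-sided permutation tests over animals, 22 in all, with Benjamini-Hochberg adjustment over the 22. The share on the strand of the gene was below 50% in 43 of 46 animals. In each of 42 tables with enough insertions it was set against other long genes, with bodies of at least 200 kb and at least 50 insertions. The median of those genes was 45.3% to 63.3%, and Zbtb20 lay below its table's median in 39 of 42. It was among the lowest 10% of those genes in only 7 of the 42, and 2.5% to 81.5% of them had a lower share still, so a low share was not particular to it.

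The gene-strand share was higher in GFAPCre than in GFAPCreNeg. The 6 GFAPCre animals had 41.2% to 44.9% (43.2% ± 1.52, SD) and the 6 GFAPCreNeg animals 37.1% to 40.7% (39.2% ± 1.27, SD). No animals overlapped. The difference was 4.02 percentage points, with an exact permutation p of 0.0022, the smallest that 6 against 6 animals can give, and an adjusted p of 0.048. This was the only share that passed. Without any 1 animal the smallest possible p rose to 0.0043 and the adjusted p to 0.070, with differences of 3.60 to 4.41 points. Among the 3 and 4 animals that shared pools the difference was 4.59 points, with an exact permutation p of 0.057, again the smallest possible.

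GFAPCre was also 4.43 points above Syn1Cre (38.8% ± 2.14, SD, n = 6), with an exact permutation p of 0.0065 and an adjusted p of 0.070. Counted over distinct positions the difference was 4.96 points with an adjusted p of 0.024, and with insertions of at least 2 reads 5.33 points with an adjusted p of 0.048. Without Syn1Cre animal 2, the highest of its group, it was 5.11 points with an adjusted p of 0.048 by the exact permutation test. Syn1Cre was 2.26 points above Syn1CreNeg (36.5% ± 2.29, SD, n = 6; exact permutation p of 0.106, adjusted 0.229). Within the layouts that difference was 3.76 and 0.77 points, and permuted within layouts the exact p was 0.045 and the adjusted p 0.124.

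Syn1Cre_SP1_P28 had 35.7% ± 1.06 (SD, n = 4) on the gene's strand, which was -3.07 points from Syn1Cre, with an exact permutation p of 0.019 and an adjusted p of 0.075. BrokenHeart animals had 49.5%, 53.8% and 44.1%, and C57bl6J animals 44.2% and 43.9%. With 3 against 2 animals no exact permutation p can go below 0.2, and here it was 0.4. The Rbp4Cre_TRAP animals ran from 28.6% to 58.6%, on 28 to 32 insertions each. The pooled share on the gene's strand was lower in the windows with the most insertions than in the rest of the locus in each of the 11 groups of animals. Pooled over animals, the highest and second windows had 31.0% on the gene's strand in Syn1Cre_SP1_P28 against 41.9% in the rest of the locus, 40.1% against 47.1% in GFAPCre, and 35.6% against 42.9% in Syn1Cre. In C57bl6J the values were nearer each other, at 43.5% and 44.5%, as in BrokenHeart, at 49.6% and 50.6%. In N2a the order was the other way, at 51.6% and 45.3%. These pooled shares were not tested.

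The share of insertions inside the body that lay before its midpoint, called the upstream share, was lower in the DNA readout than in C57bl6J, with no test able to pass. The BrokenHeart animals had 23.8%, 22.4% and 19% (21.7% ± 2.49, SD, n = 3) and the C57bl6J animals 39.7% and 41.6% (40.6% ± 1.38, SD, n = 2). The animals did not overlap, and the difference of -18.9 points had the smallest exact permutation p that 3 against 2 animals allow, 0.2.

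By age, Syn1Cre_SP1_P28 had 37.9% ± 0.47 (SD, n = 4) before the midpoint and Syn1Cre_SP1_P10 27.9% ± 1.75 (SD, n = 3), with no overlap. The difference of 9.97 points had an exact permutation p of 0.057, the smallest possible, and an adjusted p of 0.157. The P10 animals were also below Syn1Cre, with a difference of -6.34 points (exact permutation p of 0.024, the smallest possible; adjusted 0.075), and below the 3 Syn1Cre animals of the first layout, with -2.60 points. Frontflip_GFAPCre lay below GFAPCre (32.7% ± 1.61, n = 3, against 36.8% ± 1.26, n = 6, SD), a difference of -4.05 points with no overlap, an exact permutation p of 0.024 and an adjusted p of 0.075, and with layout and group not to be told apart.

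The upstream share moved with the label layout in the Syn1 groups. The Syn1Cre animals had 29.8% to 31.4% in the first layout and 37.0% to 38.6% in the second, and the Syn1CreNeg animals 32.7% to 36.2% and 39.5% to 40%. Within each layout every Syn1Cre animal was below every Syn1CreNeg animal, with mean differences of -3.41 points in the first and -1.71 in the second. Over all animals the difference was -2.56 points with an exact permutation p of 0.251 and an adjusted p of 0.345. Permuted within layouts, a choice made after the layouts were seen to differ, the exact p was 0.005, the smallest possible, and the adjusted p 0.048. Against the 3 Syn1Cre animals of the first layout GFAPCre was 6.25 points higher. Its exact permutation p was 0.024, the smallest possible, and its adjusted p 0.065. Syn1Cre_SP1_P28 was 7.37 points above those animals, with an exact permutation p of 0.057, the smallest possible, and an adjusted p of 0.140. Neither group overlapped them. Against all Syn1Cre animals the differences were 2.52 and 3.63 points, each with an adjusted p of 0.314 by that test. The layouts are only a difference in the labels, and what else differed between them was not tested.

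**Figure D4:**
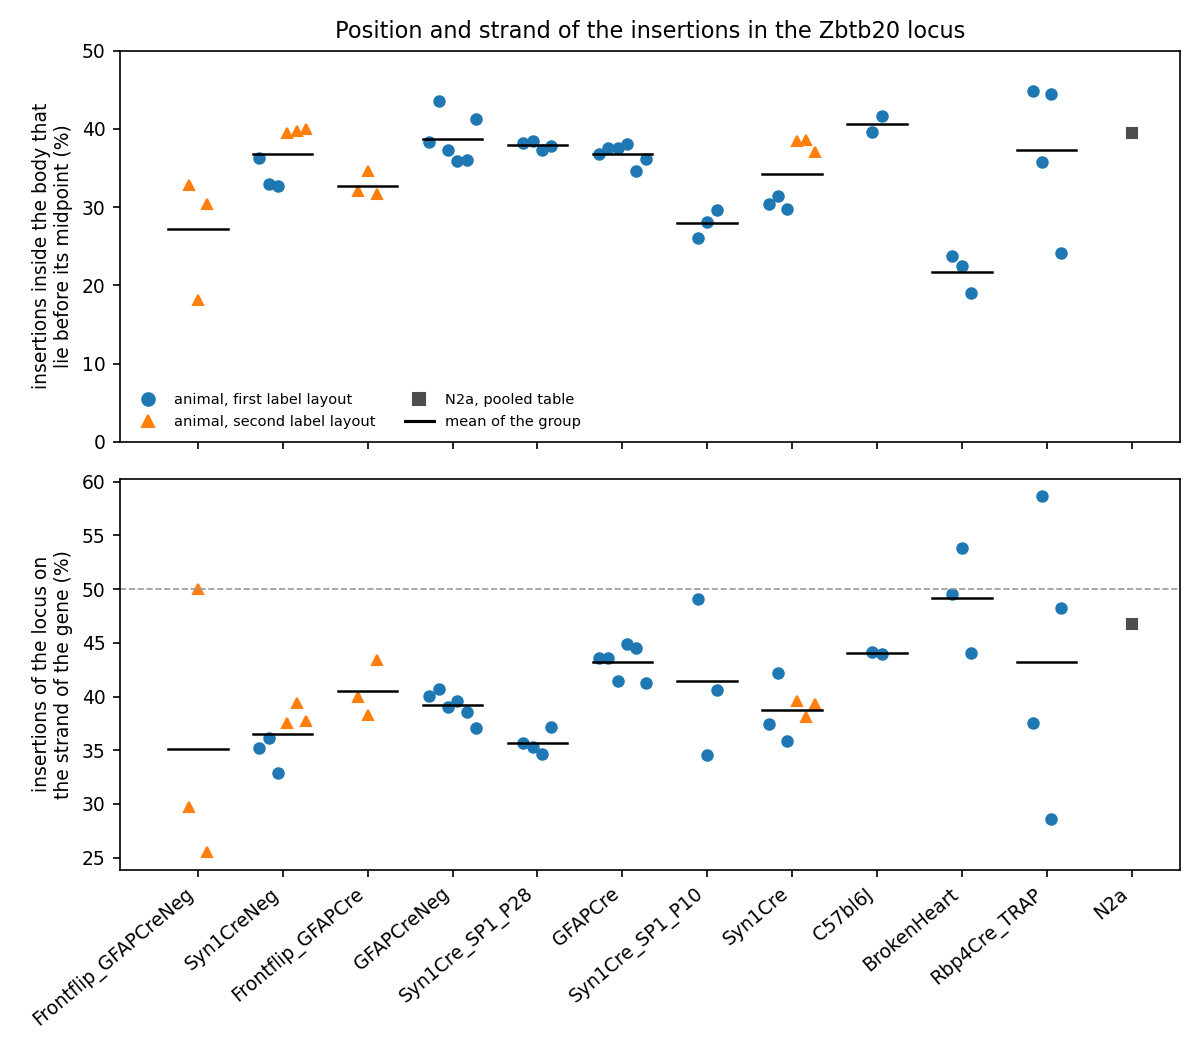
Share of insertions inside the gene body that lie before its midpoint (upper panel, %) and share of the locus's insertions on the gene's strand (lower panel, %; dashed line at 50%) for each animal by group. Circles and triangles are animals of the first and second label layout, squares are the pooled N2a table and lines are group means. BrokenHeart has the lowest mean in the upper panel (animals from 19% to 23.8%), both Syn1 groups split by layout there, and all GFAPCre animals lie above all GFAPCreNeg animals in the lower panel.

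SP1 is known to bind near gene starts, so the share of insertions within 5 kb of the body's 5′ end or of the promoter table's start was compared. Syn1Cre had 3.25% ± 0.68 (SD, n = 6). Syn1Cre_SP1_P28 had 4.54% ± 0.44 (SD, n = 4), every animal above every Syn1Cre animal, with a difference of 1.29 points, an exact permutation p of 0.0095, the smallest possible, and an adjusted p of 0.070. Syn1Cre_SP1_P10 had 6.71% ± 1.77 (SD, n = 3), again with no overlap, 3.45 points above Syn1Cre (exact permutation p of 0.024, the smallest possible; adjusted 0.075). Counted over distinct positions that difference was 0.59 points. The ages differed by -2.16 points (exact permutation p of 0.114, adjusted 0.229), and BrokenHeart and C57bl6J by -0.61 (exact permutation p of 0.8).

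Most of this share lay at the body's 5′ end, which held 6.30% ± 2.10 of the locus's insertions in Syn1Cre_SP1_P10 (SD, n = 3), 4.17% ± 0.69 in Syn1Cre_SP1_P28 (SD, n = 4) and 2.60% ± 0.50 in Syn1Cre (SD, n = 6). The start in the promoter table held 0.41%, 0.37% and 0.66% in the same order. In N2a 13.4% of insertions lay within 5 kb of the body's 5′ end and 13.9% within 5 kb of either start. The lncRNA gene 4932412D23Rik (16:42725702-42875762) overlaps the body's 5′ end. Insertions near that end therefore do not belong to the Zbtb20 start alone.

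The genes next to Zbtb20 were set beside it. Gap43, for a growth cone protein of neurons, ends 535038 bp before the body, and Drd3, for the dopamine D3 receptor, begins 119623 bp after it. The immune receptor gene Tigit overlaps the 3′ end of Zbtb20, so both share insertions. In Syn1Cre over Syn1CreNeg Tigit fell by 1.08 on the log2 scale (edgeR adjusted p of 0.0025) while Gap43 had 0.04 and Drd3 was not tested. In GFAPCre over Syn1Cre Drd3 rose by 0.92 (edgeR adjusted p of 0.0016), Tigit had 0.72 (adjusted p of 0.11) and Gap43 0.12. In GFAPCre over GFAPCreNeg none of the 3 passed: Drd3 had 0.47, Tigit -0.25 and Gap43 -0.03.

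Other genes for transcription factors known in astrocytes and radial glia were described as a list of 20, of which 19 were tested in each of 3 pairs of groups, Hes5 being too low. In GFAPCre over Syn1Cre 3 rose and 0 fell with edgeR (5 higher and 0 lower at an unadjusted p under 0.05), beside 0.936% of all loci tested that passed as higher, and the list's median was 0.15 against 0.00 over all loci. Those 3 were Id3, an inhibitor of bHLH factors (1.16 ± 0.24), Pax6, a factor of radial glia and eye development (0.95 ± 0.22), and Emx2, a homeobox factor of the developing cortex (0.91 ± 0.23; log2 fold change ± SE, edgeR adjusted p of 0.0090, 0.018 and 0.031). Klf15, a zinc finger factor, came next with 0.68 ± 0.19 (adjusted p of 0.051). The 4 at the low end were Tcf7l1 (-0.23 ± 0.13), Hes1 (-0.17 ± 0.12), Lhx2 (-0.07 ± 0.11) and Nfix (-0.03 ± 0.12), none of which passed. With bodies counted without flanks 0 passed, and against the 3 Syn1Cre animals of the first layout 10 did. Without Syn1Cre animal 5 there were 7, and without GFAPCre animal 4 or Syn1Cre animal 2 there was 1.

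In Syn1Cre over Syn1CreNeg 12 of the 19 fell and 0 rose with edgeR (13 lower and 1 higher at an unadjusted p under 0.05), beside 17.3% of all loci that passed as lower, with a median of -1.0 against 0.02 over all loci. Emx2 (-1.59 ± 0.21), Id3 (-1.56 ± 0.28), Pax6 (-1.43 ± 0.23) and Klf15 (-1.0 ± 0.23, SE) were among them, at sizes around that of Zbtb20 (-1.44), while Nfix (-0.06), Hes1 (0.19), Tcf7l1 (-0.41) and Lhx2 (0.34) did not pass. In GFAPCre over GFAPCreNeg 5 fell, beside 6.16% of all loci that passed as lower, and 1 rose, Lhx2 by 0.39 ± 0.11 (SE), beside 2.1% that passed as higher, with a median of -0.24 against 0.01. Without GFAPCre animal 2 there were 3 in all that passed. The astrocyte markers had medians of the same sign as the list's, though not the same calls. Their medians were 0.33 in GFAPCre over Syn1Cre, -1.21 in Syn1Cre over Syn1CreNeg and -0.52 in GFAPCre over GFAPCreNeg. Of 11 tested, 10 fell in Syn1Cre over Syn1CreNeg and 5 in GFAPCre over GFAPCreNeg. In GFAPCre over Syn1Cre 0 of them passed with edgeR, and 2 were higher at an unadjusted p under 0.05. Of the neuron markers 4 of 12 fell in GFAPCre over Syn1Cre (Gad1, Gad2, Dlx1 and Bcl11b), beside 1.25% of all loci that passed as lower. In Syn1Cre over Syn1CreNeg 6 of 11 rose, beside 13.4% of all loci that passed as higher, and in GFAPCre over GFAPCreNeg 2 of 9. Of 8 oligodendrocyte lineage markers 5 were tested in Syn1Cre over Syn1CreNeg, 2 of them above 0, with a median of -0.07. Olig1 (-2.0 ± 0.30) and Olig2 (-2.10 ± 0.29, SE) fell there and 0 rose. In GFAPCre over GFAPCreNeg 5 were tested, 3 of them above 0, with a median of 0.13. Olig2 fell there (-0.80 ± 0.25) and Mbp rose (0.46 ± 0.14, SE). Only 2 of 6 microglia markers were tested in these comparisons. The microglia marker P2ry12 fell in Syn1Cre over Syn1CreNeg (-0.93 ± 0.25). It rose in GFAPCre over Syn1Cre (0.77 ± 0.17, SE), where 1 of the 2 tested was above 0. The endothelial marker Pecam1, the only 1 tested of 5, rose in Syn1Cre over Syn1CreNeg (0.88 ± 0.33, SE). The markers' part in the list's changes was not tested.

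The other ZBTB genes, 40 by symbol, were counted in the same 3 comparisons. In GFAPCre over Syn1Cre 0 of the 28 tested passed with edgeR and 0 with DESeq2, beside 0.936% of all loci higher and 1.25% lower, with a median of -0.04 (1 passed without GFAPCre animal 2 or Syn1Cre animal 5 or 6), while 1 higher and 4 lower had an unadjusted p under 0.05. In Syn1Cre over Syn1CreNeg 3 of 22 rose, a share near the 13.4% of all loci that passed as higher. They were Zbtb34 (0.79 ± 0.23), Zbtb46 (0.59 ± 0.17) and Zbtb7c (0.44 ± 0.16, SE). With edgeR 0 of the 22 fell, beside 17.3% of all loci that passed as lower, and 1 was lower at an unadjusted p under 0.05. By DESeq2 2 of the list passed. Without Syn1CreNeg animal 3 or Syn1Cre animal 5 there were 5, and without Syn1CreNeg animal 5 or 6 there was 1. In GFAPCre over GFAPCreNeg 1 of 23 rose, Zbtb18 (0.31 ± 0.09, SE), a repressor of the developing cortex, beside 2.1% of all loci that passed as higher. None of the 23 fell, beside 6.16% of all loci that passed as lower. Without GFAPCreNeg animal 3 or GFAPCre animal 1 or 5 there were 0, without GFAPCreNeg animal 2 or 6 or GFAPCre animal 4 there were 2, and without GFAPCre animal 3 there were 3.

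Among the loci whose levels over the 11 groups were most like those of Zbtb20, by Pearson correlation of log2(mean CPM + 1) among 10799 loci, were Tnfrsf19 (r = 0.990), Dtna (0.983), Sall3 (0.982) and Slc1a3 (0.982). The points share tables and depth, and the correlation is a description. Slc1a3 encodes the astrocyte glutamate transporter GLAST, Tnfrsf19 a receptor of the tumour necrosis factor family, Dtna dystrobrevin alpha, and Sall3 a zinc finger factor. These 4 were highest in Frontflip_GFAPCreNeg and lowest in Rbp4Cre_TRAP. Slc1a3 ran from 2002 to 50.9 CPM and Tnfrsf19 from 670 to 141. Slc1a3 had 946 in Syn1CreNeg against 314 in Syn1Cre, and 707 in GFAPCreNeg against 489 in GFAPCre.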

How the data were processed

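The series holds 194 GEO samples in 47 tables, 46 of single animals and 1 pooled from N2a. The deposited counts are 1 line per insertion with its read count and strand, per the files; the authors combined the barcodes of an animal, per the design text. Novoalign, Bowtie2 and mm10 are named in the submitters' processing notes, with no roles given. Lines were counted, each as 1 insertion whatever its reads, so depth is the number of lines. BrokenHeart positions were moved by -1 base to fall on TTAA: 83 of 86 positions in RefSeq promoters then did (96.5%), as did 533 of 533 SRT positions. In a table, an insertion's strand is as the file gives it.

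Counts in all protein-coding loci (other bodies with 10 kb each side) and in all 50 kb windows were fitted with edgeR 4.0.16 in R 4.3.3 (TMM, filterByExpr, quasi-likelihood test on the 2 groups compared, Benjamini-Hochberg over all loci or windows, threshold 0.05), tested on simulated data first. DESeq2 1.42.0 was an alternative. Shares were compared with exact permutation tests over animals (Python 3.11.15), where p is the smaller tail doubled. Intervals and floors cover counting error only. Members and lists were chosen with earlier results of these data known. Named were the 3 highest and 3 lowest windows, the 5 loci most alike on another chromosome or over 1 Mb away and at or above the median level (1 of them is not reported here), and the 4 highest and 4 lowest of the astroglial list for GFAPCre over Syn1Cre. Other features named were chosen after their values were seen. Alternatives were scaling by total insertions, no filter, distinct positions, insertions with at least 2 reads, the body alone, starts within 2 or 10 kb, the replicate number as a block and each animal left out. The layouts and shared pools were added after seeing the data.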

Additional observations from a re-analysis of the deposited data

Results flagged for a closer look

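Among the 24 sets of 4 to 10 animals examined, 2 had an animal far from the others, and chance alone gives about 1 in 20. Animal 6 of GFAPCreNeg had 6599 CPM in the locus, at a distance from the next animal of 0.76 of the group's range, and animal 5 of Syn1Cre had 4096, at 0.81 of the range. Both had the smallest table of their group. Leaving them out moved the log2 fold change to -0.49 for GFAPCre over GFAPCreNeg and to 0.81 for GFAPCre over Syn1Cre.

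Tables outside the comparisons also exceeded the control animals, those of Syn1CreNeg and GFAPCreNeg, whose highest level was 6662. The Frontflip_GFAPCreNeg animals had 7708, 9398 and 8297 CPM, from 22 to 74 insertions each. The share on the gene's strand was 46.8% in N2a and 50% in Frontflip_GFAPCreNeg animal 2, against at most 40.7% in the control animals. That animal had 22 insertions in the locus, and Frontflip_GFAPCreNeg animals 1 and 3 had 29.7% and 25.5%. All GFAPCre animals (41.2% to 44.9%) and both C57bl6J animals (44.2% and 43.9%) also lay above 40.7%. The share near a start was 13.9% in N2a and 4.05% in Frontflip_GFAPCreNeg animal 1, against at most 3.74%. Frontflip_GFAPCreNeg animals 2 and 3 had 0% and 2.13%. GFAPCre animals 1 and 4, with 4.27% and 4.82%, also lay above 3.74%, so 4.05% was not unusual in the series.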

How the results depend on the processing

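Of 741 recomputed values over 58 results, 620 kept their direction and their side of the threshold or lay within the spread between animals. Of 154 alternative fold changes of the locus 150 kept their sign. The cause of the changes below was not tested.

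For Syn1Cre_SP1_P10 over Syn1Cre the fold change of the locus turned to 0.087 with distinct positions and 0.079 with the replicate block, and for BrokenHeart over C57bl6J to 0.011 with total insertions and 0.10 with distinct positions (-0.76 with no filter). Rbp4Cre_TRAP over Syn1Cre moved to -1.04 with distinct positions. Syn1Cre over Syn1CreNeg moved to -2.08 and -0.95 within the layouts. With first-layout Syn1Cre animals GFAPCre over Syn1Cre moved to 1.05. With distinct positions the share before the midpoint of Rbp4Cre_TRAP minus Syn1Cre turned to -3.60 and the share near a start of Syn1Cre_SP1_P28 minus Syn1Cre_SP1_P10 to 0.42.

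Windows past the threshold came, for GFAPCre over Syn1Cre, to 1 with total insertions, 3 with no filter, 1 with distinct positions and 13 with first-layout Syn1Cre animals. They came to 6 for GFAPCre over GFAPCreNeg among animals with shared pools. For Syn1Cre_SP1_P28 over Syn1Cre there were 3 with DESeq2, and for Syn1Cre_SP1_P10 over Syn1Cre 2 with no filter and 2 with distinct positions. For Syn1Cre_SP1_P28 over Syn1Cre_SP1_P10 there was 1 with each of DESeq2, no filter and distinct positions. For BrokenHeart over C57bl6J there was 1 with at least 2 reads. For Rbp4Cre_TRAP over Syn1Cre there were 7 with no filter and 1 with distinct positions, and for Frontflip_GFAPCre over GFAPCre 3 with at least 2 reads.

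The gene-strand difference of GFAPCre minus Syn1Cre passed with distinct positions (4.96) and at least 2 reads (5.33), that of GFAPCre minus GFAPCreNeg did not pass among animals with shared pools (4.59), and the share before the midpoint of Syn1Cre minus Syn1CreNeg passed when permuted within layouts (-2.56). Astroglial loci past the threshold in GFAPCre over Syn1Cre came to 1 with distinct positions, 1 with at least 2 reads, 0 with bodies without flanks and 10 with first-layout animals. ZBTB loci came to 1 with total insertions, 1 with no filter and 4 with first-layout animals for GFAPCre over Syn1Cre, to 5 with total insertions and 0 within each layout for Syn1Cre over Syn1CreNeg, and to 2 with total insertions and 3 with bodies without flanks for GFAPCre over GFAPCreNeg. Of 11 groups 4 kept their rank in the order of levels with distinct positions, 9 with at least 2 reads and 9 without flanks.

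With 1 animal left out at a time, BrokenHeart over C57bl6J ran from -0.70 to -0.24 for the locus. Windows past the threshold ran from 0 to 9 for GFAPCre over Syn1Cre, 3 to 15 for Syn1Cre_SP1_P28 over Syn1Cre, 0 to 3 for Syn1Cre_SP1_P10 over Syn1Cre, 1 to 5 between the SP1 ages, 0 to 2 for BrokenHeart over C57bl6J and 0 to 10 for Frontflip_GFAPCre over GFAPCre. Where that left C57bl6J with 1 animal, it was assumed to vary like BrokenHeart. Gene-strand differences ran from 3.60 to 4.41 for GFAPCre minus GFAPCreNeg, 3.85 to 5.11 for GFAPCre minus Syn1Cre, -1.14 to 6.11 for Syn1Cre_SP1_P10 minus Syn1Cre (below 0 without Syn1Cre_SP1_P10 animal 1) and -0.63 to 9.38 for Rbp4Cre_TRAP minus Syn1Cre (below 0 without Rbp4Cre_TRAP animal 2). The difference near a start of BrokenHeart minus C57bl6J ran from -1.46 to 0.027 (above 0 without BrokenHeart animal 3). Astroglial loci ran from 1 to 7 for GFAPCre over Syn1Cre and 3 to 7 for GFAPCre over GFAPCreNeg, and ZBTB loci from 0 to 1, 1 to 5 and 0 to 3 in the 3 comparisons.

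Animals share only a replicate number: in no comparison did all same-numbered pairs correlate above 0.1 (for GFAPCre over Syn1Cre -0.21 to 0.18). With the replicate block, windows past the threshold came to 14 for Syn1Cre_SP1_P28 over Syn1Cre, 5 for Syn1Cre_SP1_P10 over Syn1Cre, 6 between the SP1 ages and 0 for BrokenHeart over C57bl6J, and ZBTB loci to 0 for GFAPCre over GFAPCreNeg. Every sample correlated best with its own number in no comparison. Depth limits Frontflip_GFAPCreNeg and Rbp4Cre_TRAP, with 22 to 74 insertions in the locus per animal.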
